A study of Mus musculus with 3 samples.

Results

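The comparison described here was that of C2C12-W4-08, a cloned C2C12 subline made to express Wnt4, with C2C12-PR, the parental C2C12 line, both kept in rich medium. Its members were 2 of the 3 samples in the study, 1 array for each condition, taken from their labels. C2C12 is a myoblast-like mouse line of C3H origin, obtained from a cell bank. C2C12-PR was untransfected and was grown for 2 days in medium with 10% fetal bovine serum. C2C12-W4-08 was grown in the same way after stable transfection with a plasmid that carries V5-tagged Wnt4 under the CMV promoter together with a blasticidin resistance gene, and it was a single clone taken through blasticidin selection. No clone carrying an empty plasmid was analysed here, and the study's notes on its arrays put C2C12-W4-08 under another array order than the parental pair. Wnt4, the clone, the selection and the array order cannot be told apart. The third array, C2C12-DF, held parental cells kept for 2 days in 2% horse serum, and its values are given beside the others only where they help to place a level.

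Wnt proteins are secreted, lipid-modified ligands that bind Frizzled receptors, and some of them, with Lrp5 or Lrp6 as coreceptor, stabilize β-catenin, which then acts with Tcf and Lef factors on transcription. Wnt4 is known for its part in the development of kidney, gonad and mammary gland and has been linked to myogenic differentiation. Myoblasts carry the myogenic factors Myf5 and Myod1 while they divide, and turn on Myog and the contractile proteins once serum is withdrawn.

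Each array gave a single-dye signal for 23473 mouse probes. The signal of a probe was its median spot brightness less the mean of 1750 blank spots, and a probe counted as detected where its spot lay at least 2 SD above that mean. Signals were scaled so that the median ratio between both arrays was 1, with the median of C2C12-PR set to 25. The blank spots were brighter on C2C12-PR, at a mean of 20.4 scanner units, than on C2C12-W4-08, at 4.38 units, and detection reached down to a signal of 2.72 on the former and 0.697 on the latter. As a result 5101 probes were detected on C2C12-W4-08 alone, of which 284 (5.57%) were at least 2-fold above the lowest signal of C2C12-PR, 177 on C2C12-PR alone, and 16682 on both. There was 1 array a side, so no test was made and a ratio of 2 or more is a mark of size only. The spread within the arrays was visible in 3 positive controls of 24 spots each. Their mean log2 ratios were 1.09, -0.58 and -0.78, with SDs between spots of 0.52, 0.18 and 0.25. The first was the dimmest, with mean signals of 86.9 on C2C12-PR and 183 on C2C12-W4-08, and was itself past 2-fold. This limits the reading of genes of such signals that are higher by about 2-fold. The 48 print blocks of the arrays had median log2 ratios between -0.77 and 0.50. In the 114 genes that had more than 1 compared probe, the probes lay a median of 0.65 apart on the log2 scale.

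The targeted gene came first. Wnt4 was not detected on C2C12-PR and had a signal of 115 on C2C12-W4-08, at least 42.2-fold above the lowest signal detected on C2C12-PR. This was the largest bound among all gene-named probes detected on C2C12-W4-08 alone. On C2C12-DF the Wnt4 signal was 4.63, so that the level of the subline stood far above that of the differentiating parental cells. The files give no position for the probe, and transcripts of the plasmid and of the chromosomal gene cannot be told apart by it.

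No other Wnt ligand was brighter than 17.9 on C2C12-W4-08, the signal of Wnt11. Among 11 compared Wnt ligands, 0 were at least 2-fold higher and 2 were at least 2-fold lower, where 8.55% of all compared probes were higher and 11.0% were lower by this mark. Wnt10a, a ligand linked to the development of teeth and skin appendages, was 15.9 on C2C12-PR, 1.99 on C2C12-W4-08 and 27.9 on C2C12-DF, and stood lowest in the clone. Wnt7b, a ligand of lung and kidney development, lay near the detection limits with 3.14 on C2C12-PR and 0.697 on C2C12-W4-08. The remaining 9 lay within 2-fold, from -0.91 for Wnt10b to 0.60 for Wnt11. Besides Wnt4, 7 ligands were detected on C2C12-W4-08 alone at signals of 2.85 or less, about the lowest level that C2C12-PR could show or below it.

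The receptors were spread evenly around 0. Among 14 Wnt receptors and coreceptors compared, 1 was at least 2-fold higher, 1 was at least 2-fold lower, and the median log2 ratio was 0.01. Fzd1, a Frizzled receptor, was 4.79 on C2C12-PR, 13.6 on C2C12-W4-08 and 14.7 on C2C12-DF, and Ror1, a receptor-like tyrosine kinase that binds Wnt ligands, was 8.91 on C2C12-PR, 2.42 on C2C12-W4-08 and 2.35 on C2C12-DF. Both were dim on every array. Fzd6 and Lrp6 had log2 ratios of 0.82 and 0.61, and the bright Ryk, another Wnt-binding receptor, had -0.35. Secreted Wnt antagonists held no compared member past 2-fold among 6, with Dkk1 at 0.06 and Sfrp1 at -0.21, and Sost, sclerostin, was detected on C2C12-PR alone at 3.55, near the detection limit.

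Genes widely used as readouts of β-catenin gave mixed values. Axin2, the negative feedback regulator most used for this purpose, was not detected on C2C12-PR and had a signal of only 1.13 on C2C12-W4-08, below what the parental array could have shown. Of 9 compared, 1 was higher and 1 lower by 2-fold or more. Rnf43, a ubiquitin ligase that removes Frizzled from the cell surface, was 5.20 on C2C12-PR and 15.8 on C2C12-W4-08, with a log2 ratio of 1.60. Lef1, the transcription factor partner of β-catenin, was 11.4 on C2C12-PR and 5.01 on C2C12-W4-08, with -1.19. Nkd1, a feedback inhibitor acting on Dishevelled, lay just inside the mark at 7.67 on C2C12-PR and 15.3 on C2C12-W4-08. Notum, listed in the files as 5730593N15Rik and coding for an enzyme that inactivates Wnt by removing its lipid, was detected on C2C12-W4-08 alone at 7.59, which is at least 2.79-fold above the parental limit. This is the brighter of its 2 probes, and the other reached 1.56 on C2C12-W4-08. Lgr5, a receptor of R-spondins, was in contrast detected on C2C12-PR alone, at its limit of 2.72. Tcf7 and the matricellular gene Wisp1 differed little, with log2 ratios of 0.17 and 0.03.

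Over all compared probes, 1426 (8.55%) lay at or above 2-fold higher in C2C12-W4-08 and 1843 (11.0%) lay as far or further below. This is 19.6% in both directions, and 80.4% differed less. The counts of each gene list are to be read beside these shares. Past 4-fold there were 136 higher and 388 lower. Among the 10046 compared probes with a signal of at least 20 on 1 or both arrays, 8.15% were higher and 7.86% lower. Among the 4466 with a signal of at least 100 on 1 or both arrays, 7.1% were higher and 8.08% were lower.

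**Figure D1:**
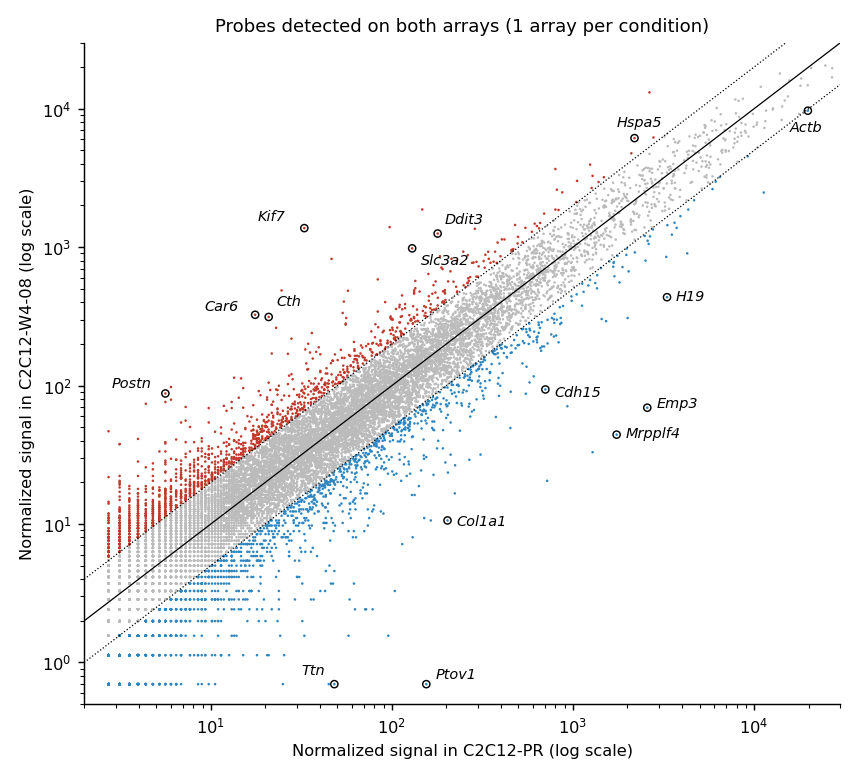
Normalized signal of each probe detected on both arrays, C2C12-PR on the horizontal axis and C2C12-W4-08 on the vertical axis, both on a log scale, 1 array per condition. The solid line marks equal signals and the dotted lines 2-fold, with 1426 probes above in red and 1843 below in blue; circles mark genes named in the text, of which Kif7 lies highest above the line and Ptov1 lowest below it.

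The gene-named probe with the largest ratio among bright ones was Kif7, a kinesin-like protein of the primary cilium that regulates Gli factors in Hedgehog signaling. Its signal was 32.8 on C2C12-PR, 1373 on C2C12-W4-08 and 126 on C2C12-DF, a 41.8-fold difference between the rich-medium arrays. A second Kif7 probe did not show it, since it was not detected on C2C12-PR and had 1.13 on C2C12-W4-08, so that the gene's level rests on which probe is read. Car6, a secreted carbonic anhydrase, was 17.6 on C2C12-PR, 325 on C2C12-W4-08 and 7.83 on C2C12-DF. Trem1, an activating receptor of myeloid cells, was 22.9 on C2C12-PR, 261 on C2C12-W4-08 and 28.8 on C2C12-DF. For all 3 genes the clone was at least 11.4-fold above the parental cells in rich medium. Palm, a lipid-anchored protein of the plasma membrane, was 26.6 on C2C12-PR and 169.6 on C2C12-W4-08, and Dnd1, an RNA-binding protein of germ cells, was 33.2 on C2C12-PR and 182 on C2C12-W4-08. Gsta2, a glutathione transferase, had 34.5 on C2C12-PR and 201 on C2C12-W4-08. The 15 highest also held 5 genes whose names state no function, with log2 ratios from 2.81 for 1700030B21Rik to 4.31 for 9930021D14Rik, and 4 genes of the amino acid response that are described with their lists.

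At the other end stood the genes with the lowest ratios. The rule that chose them asked for a signal of at least 100 on 1 array, so their high parental signal follows from the rule. Emp3, a tetraspan membrane protein of the Pmp22 family, was 2572 on C2C12-PR, 69.2 on C2C12-W4-08 and 3256 on C2C12-DF, a log2 ratio of -5.22, and lay far below both parental arrays. Mrpplf4 and Plf2 encode proliferins, secreted hormones of the prolactin family made by the placenta and by dividing cells. They were 1742 on C2C12-PR, 44.2 on C2C12-W4-08 and 74.5 on C2C12-DF for the former and 1283 on C2C12-PR, 33.01 on C2C12-W4-08 and 51.7 on C2C12-DF for the latter. The clone was low where the serum-withdrawn parental cells were low too, and since their sequences are near copies the probes may not tell the family members apart. Ptov1, a regulator linked to proliferation, showed the lowest ratio, -7.80, with 155 on C2C12-PR and 0.697 on C2C12-W4-08, the second value being the lowest signal that C2C12-W4-08 could show. Paip1, a partner of poly(A)-binding protein, was 104 on C2C12-PR and 3.28 on C2C12-W4-08. Bnip3l, a receptor for the removal of mitochondria by autophagy, was 130.2 on C2C12-PR and 8.02 on C2C12-W4-08. Mtap, which recycles the methionine moiety left over from polyamine synthesis, was 164 on C2C12-PR and 10.6 on C2C12-W4-08, against 115 on C2C12-DF. Gzme, a granzyme, was 114 on C2C12-PR and 7.16 on C2C12-W4-08, Pitpnb, a phosphatidylinositol transfer protein, was 223 on C2C12-PR and 16.6 on C2C12-W4-08, and AU014645 was 309 on C2C12-PR and 31.7 on C2C12-W4-08. After centring of each print block, all of these highest and lowest genes were past 2-fold the same way, as the rule that chose them required.

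Genes of the amino acid response lay on the higher side. Cells short of amino acids, or with misfolded protein in the endoplasmic reticulum (ER), phosphorylate eIF2α, which raises translation of the transcription factor Atf4, and Atf4 with C/EBP partners then acts on genes for amino acid uptake and synthesis, tRNA charging and further stress factors. Of 21 compared genes in a list of this response, 8 (38.1%) were at least 2-fold higher and 0 lower, against 8.55% and 11.0% of all compared probes. The median log2 ratio of the 21 was 0.87, where the median over all probes is 0. All 8 had a signal of at least 20 on 1 array. After print-block centring the median was 0.87.

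Atf4 itself was 1053 on C2C12-PR, 3012 on C2C12-W4-08 and 904 on C2C12-DF, a 2.86-fold difference from the parental cells in rich medium. The value depends on the background, since on C2C12-W4-08 the area around the Atf4 spot read 4770 scanner units against 6994 for the spot, where C2C12-PR had 159 against 2573. With that local background subtracted the log2 ratio of 1.52 was 0.41, and with the normexp correction it was -0.09. Cth, the enzyme that makes cysteine from cystathionine, was 20.9 on C2C12-PR, 313 on C2C12-W4-08 and 4.18 on C2C12-DF, the largest ratio in the list, with a log2 value of 3.91. Ddit3, a C/EBP-related transcription factor also called Chop, was 179 on C2C12-PR, 1254 on C2C12-W4-08 and 205 on C2C12-DF, and so stood apart from both parental arrays. Trib3, a pseudokinase, was 27.9 on C2C12-PR, 218 on C2C12-W4-08 and 12.4 on C2C12-DF. Chac1, which degrades glutathione, was 135 on C2C12-PR, 505 on C2C12-W4-08 and 70.4 on C2C12-DF. The 2 genes were highest in C2C12-W4-08 and lowest in C2C12-DF. Myd116, the current Ppp1r15a, whose product brings the phosphatase back to eIF2α, was 38.2 on C2C12-PR and 175 on C2C12-W4-08. Herpud1, a part of the ER degradation machinery, was 62.1 on C2C12-PR and 178 on C2C12-W4-08, and Gpt2, an alanine transaminase, was 17.2 on C2C12-PR and 42.5 on C2C12-W4-08. Not all known members moved this far, since Asns, the asparagine synthetase, had a log2 ratio of 0.75, Atf5 had 0.62, Sesn2 had 0.48, Atf3 had 0.28 and Eif4ebp1 had -0.05. Vldlr, a lipoprotein receptor, was detected on C2C12-W4-08 alone at 23.96, at least 8.80-fold above the parental limit.

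The C/EBP-ATF response element, at which Atf4 binds with a C/EBP partner, has the core TGATGNAA, and this core was searched on both strands (as TTNCATCA on the other) in RefSeq promoter windows of the GRCm38.p6 assembly, from 250 bases before to 50 after each annotated start. Of 27025 genes of the table, 4.51% held it in a window. In the amino acid response list 9 of 21 genes matched in the table did so, which is 42.9%, as did 3 of the 7 matched genes that were at least 2-fold higher. For tRNA synthetase genes the count was 5 of 12, for amino acid supply genes 3 of 14, and for ER chaperone genes 0 of 17. Such a match describes the letters of the window and is not a measured site, and many genes entered these lists as known targets of Atf4. In the following stretches of 100 bases, all ending before the start of the gene, the core is in capitals, and they are shown because these genes were at least 2-fold higher and carried it upstream.
Chac1: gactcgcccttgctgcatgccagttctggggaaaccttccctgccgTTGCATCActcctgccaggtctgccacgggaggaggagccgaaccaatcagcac
Herpud1: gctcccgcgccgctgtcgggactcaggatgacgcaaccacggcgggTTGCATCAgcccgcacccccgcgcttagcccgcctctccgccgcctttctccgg
Slc7a11: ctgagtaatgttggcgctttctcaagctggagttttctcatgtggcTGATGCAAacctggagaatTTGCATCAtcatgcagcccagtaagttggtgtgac
Tars: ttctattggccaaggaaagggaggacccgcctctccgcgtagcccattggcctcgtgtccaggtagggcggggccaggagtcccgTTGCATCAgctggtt
Gars: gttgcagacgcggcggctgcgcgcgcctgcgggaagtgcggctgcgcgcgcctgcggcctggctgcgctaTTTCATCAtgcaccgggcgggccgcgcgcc
They lie at chr2:119351003-119351102 on the plus strand, chr8:94386271-94386370 on the plus strand, chr3:50443626-50443725 on the minus strand, chr15:11399659-11399758 on the minus strand and chr6:55037901-55038000 on the plus strand, in this order. The core began 193 bases before the start in Chac1 and 112 bases before it in Herpud1. Slc7a11 held it 2 times, once in each orientation. In Trib3 the single match fell after the start, at base 15.

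Genes of amino acid supply lay on the same side. Of 18 compared, 6 (33.3%) were at least 2-fold higher and 0 lower, with a median log2 ratio of 0.63. Slc3a2, the heavy chain shared by several amino acid transporters, was 129 on C2C12-PR, 980.5 on C2C12-W4-08 and 117 on C2C12-DF, a 7.58-fold difference. Slc6a9, a glycine transporter, was 20.9 on C2C12-PR, 105 on C2C12-W4-08 and 33.9 on C2C12-DF. In the serine and folate branch, Mthfd2, a mitochondrial folate enzyme, was 248 on C2C12-PR, 928 on C2C12-W4-08 and 98.3 on C2C12-DF, and Psph, the last enzyme of serine synthesis, was 211 on C2C12-PR, 669 on C2C12-W4-08 and 83.7 on C2C12-DF. Both were highest in the clone and lowest in C2C12-DF. Slc38a1, a glutamine carrier, was 105 on C2C12-PR and 224 on C2C12-W4-08, a level and ratio close to those of the dimmest positive control. Slc7a11, the cystine carrier, was dim with 4.79 on C2C12-PR and 11.04 on C2C12-W4-08. Psat1 and Shmt2, bright enzymes of serine synthesis and use, had log2 ratios of only 0.42 and 0.19, and Slc7a5, which pairs with the Slc3a2 protein, had 0.41.

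The enzymes that charge tRNAs followed with smaller ratios. Of 18 cytosolic tRNA synthetases, 5 (27.8%) were at least 2-fold higher, 0 lower, and the median was 0.59, or 0.37 after print-block centring. Tars, for threonine, was 263 on C2C12-PR, 875 on C2C12-W4-08 and 194 on C2C12-DF. Lars, for leucine, was 40.7 on C2C12-PR, 109.7 on C2C12-W4-08 and 34.3 on C2C12-DF, and Rars, for arginine, was 398 on C2C12-PR and 859 on C2C12-W4-08. Gars, for glycine, was 1043 on C2C12-PR and 2115 on C2C12-W4-08 and lay at the 2-fold mark. After print-block centring 2 of the 5, Tars and Lars, were still past 2-fold, and Rars, Gars and Eprs, for glutamate and proline, had log2 ratios of 0.73, 0.73 and 0.83. Kars, for lysine, was lower in the clone at 905 on C2C12-PR and 584 on C2C12-W4-08, within 2-fold. The list median was -0.04 with a normexp background correction, the single alternative of 10 in which its sign changed.

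Chaperones of the ER, which fold secreted proteins, were higher as well. Of 19 compared, 6 (31.6%) were at least 2-fold higher and 0 lower, and the median log2 ratio was 0.65, or 0.34 after print-block centring. Hspa5, the most abundant ER chaperone of the Hsp70 family, was 2187 on C2C12-PR, 6132 on C2C12-W4-08 and 1797 on C2C12-DF, a 2.80-fold difference. The area around the Hspa5 spot read 5551 scanner units against 14236 for the spot on C2C12-W4-08, and 125 against 5321 on C2C12-PR. With that local background subtracted the Hspa5 log2 ratio of 1.49 was 1.27, and with normexp it was 0.76. The list median was 0.84 and 0.32 in these settings. Hsp90b1, its Hsp90 counterpart, was 2101 on C2C12-PR, 4762 on C2C12-W4-08 and 2343 on C2C12-DF. Both were bright on all 3 arrays and higher only in the clone by this mark. Dnajc3, an ER cochaperone that also inhibits the eIF2α kinases, was 50.2 on C2C12-PR and 153 on C2C12-W4-08. Sdf2l1, an ER protein of the chaperone complex, was 118 on C2C12-PR and 362 on C2C12-W4-08, and Pdia4, a disulfide isomerase, was 138 on C2C12-PR and 325 on C2C12-W4-08. Sel1h, the current Sel1l and an adaptor of ER degradation, was 19.2 on C2C12-PR and 61.9 on C2C12-W4-08. The factor Xbp1 had a log2 ratio of -0.11, Calr had -0.28 and Canx had 0.11, so that the ER lectins did not share the difference. Cytosolic heat shock proteins had 0 higher and 1 lower of 13, the lower one being the small heat shock protein Hspb1 at -1.01.

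**Figure D2:**
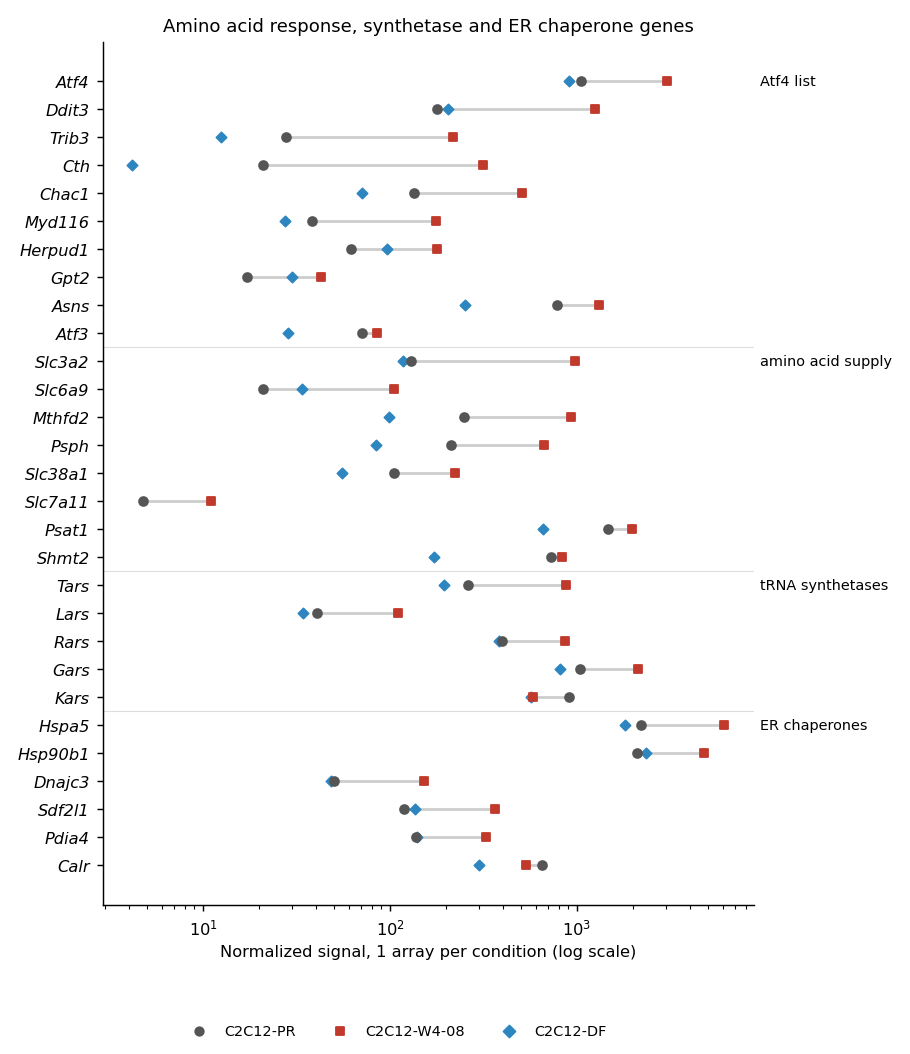
Normalized signal on a log axis for genes of the Atf4 list, amino acid supply, tRNA synthetases and ER chaperones, 1 array per condition, with a grey line from C2C12-PR (circle) to C2C12-W4-08 (square) and C2C12-DF as a diamond. A value that was not detected is not drawn; the square lies right of the circle for all genes shown except Kars and Calr.

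In the glutathione and Nrf2 list, 6 of 30 compared genes were at least 2-fold higher and 2 lower, with a median of 0.23. Nqo1, a quinone reductase, was 48.5 on C2C12-PR, 168 on C2C12-W4-08 and 18.8 on C2C12-DF, and Hmox1, heme oxygenase, was 110 on C2C12-PR, 368 on C2C12-W4-08 and 85.5 on C2C12-DF. Gclm, the modifier subunit of the first enzyme of glutathione synthesis, was 159.9 on C2C12-PR and 410.5 on C2C12-W4-08, while its catalytic partner Gclc had a log2 ratio of -0.06. Txnrd1 and Srxn1, other genes known as Nrf2 targets, lay within 2-fold at 0.41 and 0.36. The lower ones were Gpx3, a secreted glutathione peroxidase, at 35.7 on C2C12-PR and 6.30 on C2C12-W4-08, and Mgst1, a microsomal glutathione transferase, at 55.5 on C2C12-PR and 15.3 on C2C12-W4-08. Among 21 compared p53 target genes 3 were higher, which is 14.3%, against 8.55% of all compared probes. Of these, Gadd45a, a growth arrest gene that Atf4 also acts on, was 184 on C2C12-PR, 859 on C2C12-W4-08 and 616 on C2C12-DF. In contrast, Cdkn1a, which codes for the inhibitor p21, had a log2 ratio of -0.33 and Mdm2 had 0.67.

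The cells of both arrays carried the markers of myoblasts. All 6 genes used for this check (Myod1, Myf5, Des, Cdh15, Vim and Chrna1) were detected on both, and 2 of the 6, Myod1 and Cdh15, were at least 2-fold lower in C2C12-W4-08. In RNA of whole cultures, fewer cells that express a gene and less RNA of it per cell cannot be told apart. Myod1, the transcription factor that can turn other cells into muscle, was 206 on C2C12-PR, 74.4 on C2C12-W4-08 and 184 on C2C12-DF, a log2 ratio of -1.47. Myf5, the related factor that is active earliest in the embryo, was 60.9 on C2C12-PR, 117 on C2C12-W4-08 and 81.8 on C2C12-DF, which is just inside 2-fold with a log2 ratio of 0.94 that was 0.44 after print-block centring. Myog, the factor of differentiating cells, was 46.5 on C2C12-PR, 23.96 on C2C12-W4-08 and 961 on C2C12-DF, so that the clone lay below the parental cells in rich medium and far below the serum-withdrawn ones. Myf6 was near the detection limit on all 3 arrays, with 3.14 on C2C12-PR, 3.28 on C2C12-W4-08 and 2.81 on C2C12-DF.

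Among 17 compared myogenic transcription factors, 6 were at least 2-fold lower and 1 higher, and the median log2 ratio was -0.76, or -0.24 after print-block centring. Pax7, the marker of satellite cells, was 6.44 on C2C12-PR and 0.697 on C2C12-W4-08, the second value being the detection limit of its array. The E-protein Tcf12, a partner of Myod1, was 136 on C2C12-PR and 65.3 on C2C12-W4-08. Eya4, a transcriptional coactivator, was the single higher member at 2.72 on C2C12-PR, 21.8 on C2C12-W4-08 and 5.55 on C2C12-DF, with its parental value at the detection limit. Mef2a and Mef2d had log2 ratios of -0.76 and 0.02.

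Several surface proteins of myoblasts were low as well. Cdh15, the muscle cadherin, was 704 on C2C12-PR, 93.8 on C2C12-W4-08 and 1162 on C2C12-DF, a 7.51-fold difference between the rich-medium arrays. Itga7, the laminin-binding integrin of muscle, was 759 on C2C12-PR, 234 on C2C12-W4-08 and 1182 on C2C12-DF. Jam2, a junctional adhesion molecule, was 375 on C2C12-PR, 59.3 on C2C12-W4-08 and 173 on C2C12-DF. For Cdh15 and Itga7 the clone lay below both parental arrays, and in the fusion and adhesion list as a whole 6 of 21 compared genes were at least 2-fold lower and 1 higher. Cdon, a coreceptor that promotes myogenesis, was 10.6 on C2C12-PR and 2.85 on C2C12-W4-08. Myomaker, which drives fusion and is listed as 1110002H13Rik, was 54.3 on C2C12-PR, 25.3 on C2C12-W4-08 and 1065 on C2C12-DF. The higher one was Igsf4a, the current Cadm1, at 12.2 on C2C12-PR and 39.04 on C2C12-W4-08. Chrna1 of the acetylcholine receptor had a log2 ratio of -0.77.

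Of 31 compared sarcomere genes, 0 were at least 2-fold higher and 5 lower, with a median of -0.51. The lower ones were 16.1% of the list, where 11.0% of all compared probes were lower and 8.55% higher. In C2C12-DF the median of the same genes against C2C12-PR was 3.27. Ttn, the giant spring of the sarcomere, was 48.1 on C2C12-PR, 0.697 on C2C12-W4-08 and 190.5 on C2C12-DF, the value of the clone being at its detection limit. Its probes disagreed, as another one had 7.67 on C2C12-PR and 5.44 on C2C12-W4-08, a log2 ratio of -0.50, and the remaining one was detected on C2C12-W4-08 and C2C12-DF only. Actn3, the α-actinin of fast fibers, was 204 on C2C12-PR, 23.5 on C2C12-W4-08 and 574 on C2C12-DF, and Tnni2, the fast troponin I, was 62.1 on C2C12-PR, 20.9 on C2C12-W4-08 and 1636 on C2C12-DF. Tpm1, a tropomyosin that is abundant in myoblasts, was 2764 on C2C12-PR and 1343 on C2C12-W4-08. Tmod1, which caps thin filaments, was 13.9 on C2C12-PR, 1.56 on C2C12-W4-08 and 61.3 on C2C12-DF. Outside this list, the Z-disc protein Pdlim3 was 451 on C2C12-PR, 49.4 on C2C12-W4-08 and 923 on C2C12-DF. Among genes detected on C2C12-W4-08 alone, Tmod4, a tropomodulin of muscle, had a bound past 2-fold, at 6.30 on C2C12-W4-08 and 2.31-fold. Acta1, the skeletal actin, was 131 on C2C12-PR, 163 on C2C12-W4-08 and 6099 on C2C12-DF, and Tnnc1, Myl1 and Mylpf had log2 ratios of 0.47, 0.08 and -0.83. The myosin heavy chains Myh1, Myh3 and Myh7 were not detected on C2C12-PR and reached 3.71, 1.13 and 2.42 on C2C12-W4-08. The values of Myh3 and Myh7 lay below 2.72, the lowest signal that the parental array could show. For Myh1 the bound was only 1.36-fold, its second probe had 0.697 on C2C12-W4-08, and the brighter probe had 31.1 on C2C12-DF.

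**Figure D3:**
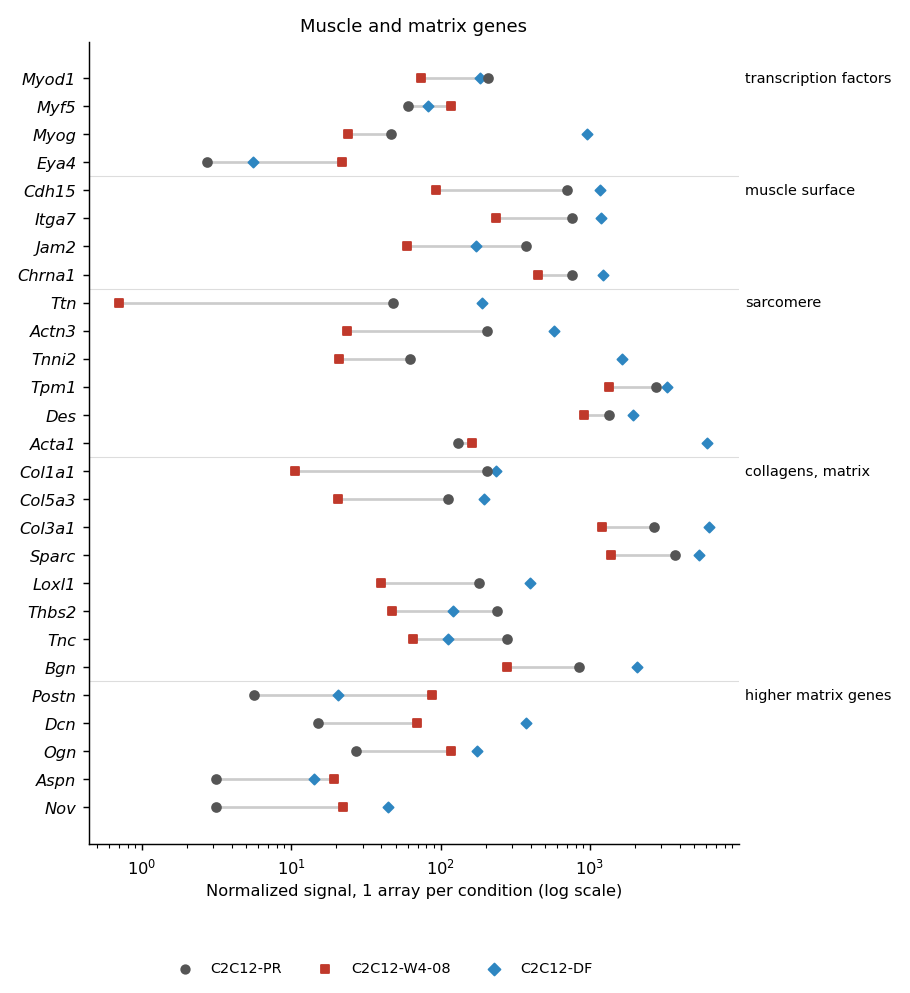
Normalized signal on a log axis for muscle and matrix genes, 1 array per condition, with a grey line from C2C12-PR (circle) to C2C12-W4-08 (square) and C2C12-DF as a diamond. The square lies left of the circle for the muscle genes shown except Myf5, Eya4 and Acta1 and for the matrix genes of the fourth group, and right of it for the 5 genes at the bottom.

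Most differences of at least 2-fold in the matrix lists given here were downward. Over all compared probes 11.0% were lower and 8.55% higher by this mark. The share of lower genes exceeded the former in every one of these lists. The share of higher genes exceeded the latter only for matrix proteases and inhibitors. Of 25 compared collagen chains, 7 were at least 2-fold lower and 1 higher, and the median was -0.75. Col1a1, the main chain of type I collagen, was 203 on C2C12-PR, 10.6 on C2C12-W4-08 and 233 on C2C12-DF, a 19.1-fold difference, whereas Col1a2, the other chain of the same trimer, was 989.9 on C2C12-PR, 715 on C2C12-W4-08 and 1550 on C2C12-DF and within 2-fold. Col5a3 was 112 on C2C12-PR, 20.5 on C2C12-W4-08 and 196 on C2C12-DF and Col3a1 was 2664 on C2C12-PR, 1196 on C2C12-W4-08 and 6293 on C2C12-DF. All these chains were brighter in C2C12-DF than in C2C12-W4-08. Of 26 matricellular proteins and glycoproteins, 8 were lower and 2 higher. Sparc, a collagen-binding glycoprotein, was 3737 on C2C12-PR, 1379 on C2C12-W4-08 and 5409 on C2C12-DF, and Fn1, fibronectin, was 5898 on C2C12-PR, 2627 on C2C12-W4-08 and 8378 on C2C12-DF. Loxl1, a crosslinking enzyme of elastic fibers, was 180.1 on C2C12-PR and 39.9 on C2C12-W4-08. Thbs2, a thrombospondin, was 238 on C2C12-PR and 47.2 on C2C12-W4-08 and Tnc, tenascin C, was 277 on C2C12-PR and 64.9 on C2C12-W4-08. Basement membrane genes followed, with 6 of 23 lower and 1 higher in the list of laminins, integrins and basement membrane, among them Nid1, nidogen, at 784 on C2C12-PR and 226 on C2C12-W4-08 and Lamb2, a laminin chain of the neuromuscular junction, at 202 on C2C12-PR and 71.4 on C2C12-W4-08. Of 24 compared matrix proteases and inhibitors, 6 were lower and 3 higher, and the median of -0.35 was -0.09 after print-block centring. Of the lower ones, Mmp14 was 192 on C2C12-PR and 47.7 on C2C12-W4-08 and Mmp2, the gelatinase that it activates, was 96.4 on C2C12-PR and 29.1 on C2C12-W4-08. The higher ones were Adamts5, which cleaves aggrecan, at 12.6 on C2C12-PR and 37.8 on C2C12-W4-08, the protease inhibitor Serpine2 at 8.91 on C2C12-PR and 35.2 on C2C12-W4-08 and Plaur, the urokinase receptor, at 169.8 on C2C12-PR and 532 on C2C12-W4-08.

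A smaller set of matrix genes was higher. Postn, periostin, was 5.61 on C2C12-PR, 87.7 on C2C12-W4-08 and 20.6 on C2C12-DF, the largest ratio of the matrix lists at 15.6-fold. Nov, a CCN protein now called Ccn3, was 3.14 on C2C12-PR, 22.2 on C2C12-W4-08 and 44.4 on C2C12-DF. Of 8 compared small leucine-rich proteoglycans, which bind collagen fibrils and growth factors, 3 were higher and 4 were lower. The higher ones were decorin (Dcn) at 15.1 on C2C12-PR, 69.2 on C2C12-W4-08 and 373 on C2C12-DF, osteoglycin (Ogn) at 27.1 on C2C12-PR, 118 on C2C12-W4-08 and 176 on C2C12-DF and asporin (Aspn) at 3.14 on C2C12-PR, 19.2 on C2C12-W4-08 and 14.2 on C2C12-DF. The clone lay between C2C12-PR and C2C12-DF for Dcn and Ogn and above both for Aspn. Bgn, biglycan, ran the other way in the clone at 849.6 on C2C12-PR, 278 on C2C12-W4-08 and 2072 on C2C12-DF, and Lum, lumican, was 8.50 on C2C12-PR, 0.697 on C2C12-W4-08 and 10.1 on C2C12-DF. Kera and Nyx, relatives of them in the eye, were dim at 4.37 on C2C12-PR and 1.56 on C2C12-W4-08 and at 3.14 on C2C12-PR and 1.13 on C2C12-W4-08.

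Genes of the actin cytoskeleton were lower in the clone and none was at least 2-fold higher. Of 31 compared, 12 were at least 2-fold lower, and the median was -0.75, or -0.76 after print-block centring. Actb, β-actin, among the brightest probes of the array, was 19824 on C2C12-PR, 9679 on C2C12-W4-08 and 16351 on C2C12-DF, just past 2-fold. The bright positive controls were themselves lower in the clone, at mean log2 ratios of -0.58 and -0.78, which limits the reading of bright genes near the mark. Flna, the crosslinker filamin A, was 1358 on C2C12-PR, 504 on C2C12-W4-08 and 996 on C2C12-DF. Msn, moesin, which ties filaments to the membrane, was 268 on C2C12-PR, 73.95 on C2C12-W4-08 and 93.7 on C2C12-DF, and Actn1, the non-muscle α-actinin, was 155 on C2C12-PR, 53.3 on C2C12-W4-08 and 66.3 on C2C12-DF. Lasp1, Tpm4, Pfn1 and Vcl had log2 ratios of -1.47, -1.46, -1.21 and -1.20. Zyx, Tln1 and Cald1 differed little, at 0.00, -0.24 and 0.10.

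The Notch and BMP pathways both act on myogenesis. In the Notch list, 6 of 18 compared genes were lower and 0 higher, with a median of -0.56. Notch1, a receptor of the pathway, was 63.4 on C2C12-PR, 8.02 on C2C12-W4-08 and 75.4 on C2C12-DF, and Hey1, a repressor turned on by it, was 79.9 on C2C12-PR, 13.6 on C2C12-W4-08 and 86.4 on C2C12-DF. In both the clone was low and the parental arrays were close to each other. Hes1, another Notch target, had a log2 ratio of -0.84, and the ligands Jag2 and Dll1 had -0.95 and -0.67. For the bone morphogenetic proteins, 2 of 12 compared ligands were higher and 2 lower. This is 16.7% each way, against 8.55% higher and 11.0% lower of all compared probes. Bmp4 was 6.44 on C2C12-PR, 24.8 on C2C12-W4-08 and 55.8 on C2C12-DF, and Bmp5 was 3.96 on C2C12-PR, 12.8 on C2C12-W4-08 and 6.003 on C2C12-DF. The brighter Bmp6 was 189 on C2C12-PR, 134 on C2C12-W4-08 and 159.5 on C2C12-DF and within 2-fold. Of 16 compared genes induced by BMP and Smad1/5, 1 was higher and 4 were lower, with a median of 0.03, and the 18 compared receptors and Smads had a median of 0.02. Among the induced genes, Id1, Id2 and Id3 had log2 ratios of -0.42, -0.34 and 0.66, the homeobox genes Dlx3 and Msx1 were 42.7 on C2C12-PR and 3.28 on C2C12-W4-08 and 31.2 on C2C12-PR and 6.73 on C2C12-W4-08, and the inhibitor Smad7 was 15.1 on C2C12-PR and 33.01 on C2C12-W4-08. Nog, the antagonist noggin, was 18.4 on C2C12-PR, 15.8 on C2C12-W4-08 and 16.96 on C2C12-DF. Gdf8, myostatin, was not detected on C2C12-PR and had a signal of 1.13 on C2C12-W4-08, below what the parental array could have shown.

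Among growth-control genes, the imprinted noncoding RNA H19, which is abundant in embryonic muscle, was 3306 on C2C12-PR, 435 on C2C12-W4-08 and 9710 on C2C12-DF, a log2 ratio of -2.93. Of 14 compared imprinted genes 6 were lower and 0 higher, while Igf2, the neighbor of H19 that is expressed from the other allele, was 6.44 on C2C12-PR, 5.87 on C2C12-W4-08 and 45.7 on C2C12-DF. Igfbp2, Igfbp3 and Igfbp5, which bind insulin-like growth factors, were 2030 on C2C12-PR and 669 on C2C12-W4-08, 32.01 on C2C12-PR and 1.99 on C2C12-W4-08 and 348 on C2C12-PR and 125 on C2C12-W4-08. They were the 3 lower of 8 compared binding proteins, and Igfbp4 was the single higher one, at 4.79 on C2C12-PR and 10.6 on C2C12-W4-08. The D-type cyclins parted, as Ccnd2 was 159.9 on C2C12-PR, 442 on C2C12-W4-08 and 122 on C2C12-DF. Ccnd3, in contrast, was 234 on C2C12-PR, 89.9 on C2C12-W4-08 and 561 on C2C12-DF. E2f8, an E2F repressor, was 21.7 on C2C12-PR, 2.42 on C2C12-W4-08 and 4.18 on C2C12-DF. Mitosis genes had a median of -0.45, but with 6 of 45 at least 2-fold lower and 1 higher their share of lower genes was near the 11.0% of all compared probes, and 2 of the 6 passed the mark after print-block centring. These were the phosphatase Cdc25b at 554 on C2C12-PR and 137 on C2C12-W4-08 and the kinase Nek2 at 293 on C2C12-PR and 128 on C2C12-W4-08. The 46 DNA replication genes had a median of -0.08. In C2C12-DF the medians of the same 2 lists against C2C12-PR were -1.13 and -0.91.

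In energy and lipid metabolism, Hk2, the hexokinase of muscle, was 91.8 on C2C12-PR, 401 on C2C12-W4-08 and 85.5 on C2C12-DF, while Eno3, the muscle enolase, was 2004 on C2C12-PR, 308 on C2C12-W4-08 and 2312 on C2C12-DF and Ckb, a creatine kinase, was 833 on C2C12-PR, 205 on C2C12-W4-08 and 1157 on C2C12-DF. The 25 compared genes of glycolysis and creatine kinases had a median of -0.45, with 2 higher and 5 lower. Cholesterol and fatty acid synthesis held 2 higher and 5 lower of 31, which is 6.45% and 16.1%, against 8.55% and 11.0% of all compared probes. The interferon response list held 9 lower and 0 higher of 23 compared, among them Ifitm1 at 134 on C2C12-PR, 16.2 on C2C12-W4-08 and 269.5 on C2C12-DF, the class I antigen H2-K1 at 672 on C2C12-PR, 287 on C2C12-W4-08 and 771 on C2C12-DF, and Bst2, an antiviral membrane protein, at 28.3 on C2C12-PR, 12.3 on C2C12-W4-08 and 41.6 on C2C12-DF. Irf7, a transcription factor of this response, had a log2 ratio of 0.07. In comparison, 45 cytosolic ribosomal protein genes had a median of -0.02 with 3 higher and 1 lower, 50 genes of the respiratory chain had 0.21 with 2 higher and 0 lower, and 29 proteasome genes had 0.30 with 1 higher and 0 lower.

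The sign of list medians was read in up to 10 alternatives, which leave out the unscaled table, the minimum signals and the fold marks. It held in all 10 for amino acid response, amino acid supply, ER chaperones, myogenic factors, sarcomere, collagens, actin cytoskeleton, Notch and interferon. Among the 10, dropping the detection rule could not change a sign, since list medians took only genes detected on both arrays. Scaling to the 75th percentile shifted every ratio by the same small amount, -0.017. The sign changed in at least 1 alternative for Wnt ligands and receptors, small leucine-rich proteoglycans, tRNA synthetases, Hox genes, DNA replication, ribosomal proteins, respiratory chain and proteasome. Among further lists it changed for genes induced by BMP and Smad1/5, BMP receptors and Smads, cytosolic heat shock proteins, matrix proteases, Hedgehog and epithelial markers. Of all 54 lists, 32 kept their sign throughout these alternatives. After print-block centring, 7 of the 8 higher genes of the amino acid response, 5 of 6 of amino acid supply, 4 of 6 ER chaperones, 3 of 6 in the glutathione and Nrf2 list and 2 of 5 Hox genes were still at least 2-fold higher. Of the lower genes, 5 of 6 myogenic factors, 5 of 5 sarcomere genes, 4 of 7 collagens, 11 of 12 genes of the actin cytoskeleton, 4 of 6 in the Notch list and 7 of 9 in the interferon list were still at least 2-fold lower.

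**Figure D4:**
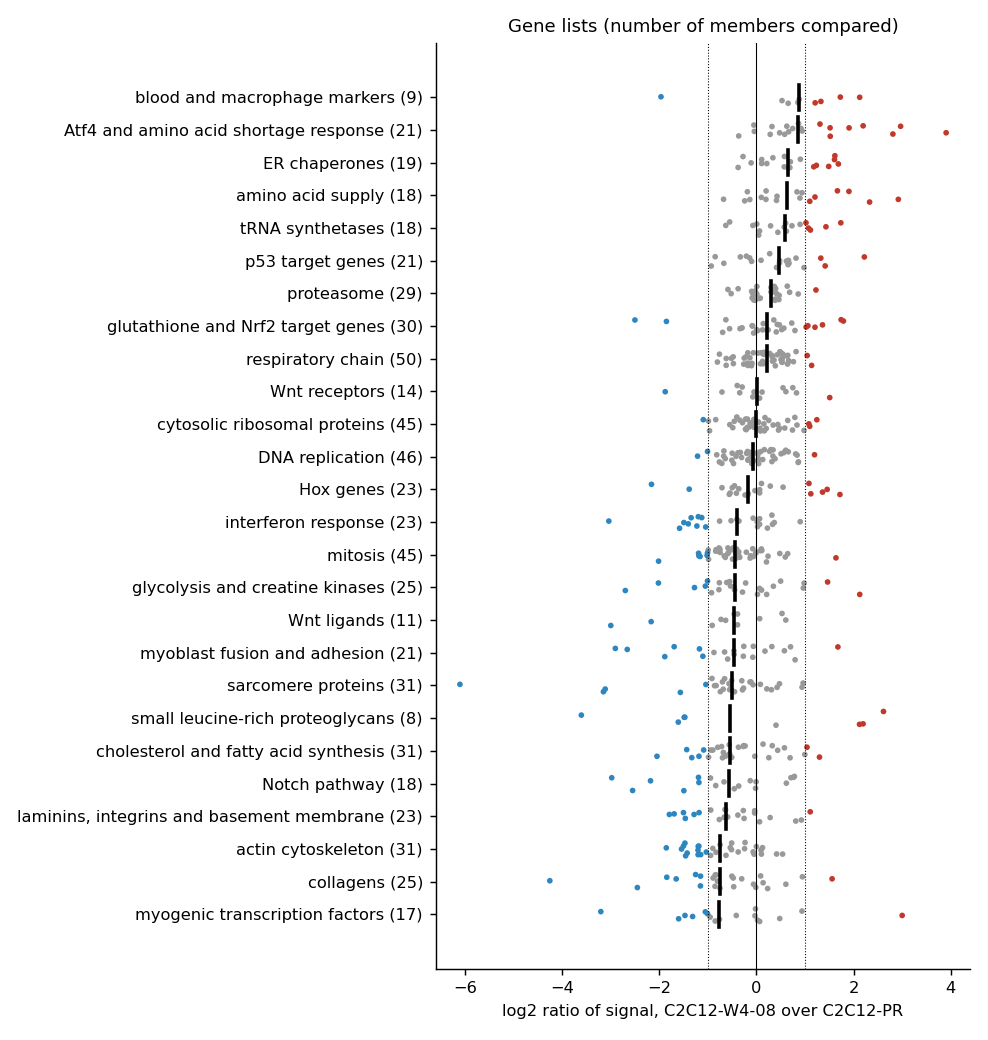
Log2 ratio of signal, C2C12-W4-08 over C2C12-PR, for the members of 26 gene lists that were detected on both arrays, with their number in brackets. Each point is a gene, red at 2-fold or more higher and blue at 2-fold or more lower, and the bar is the list's median; points are spread vertically only to be visible. The medians run from -0.76 for myogenic transcription factors to 0.88 for blood and macrophage markers.

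The Hedgehog and Hox families showed how far single members stood out. Kif7, by 1 of its 2 probes, was the only compared gene of 11 in the Hedgehog list that was at least 2-fold higher, and Stk36, a kinase of the pathway, and Cdon were the 2 lower ones, with log2 ratios of -1.96 and -1.89. Gli1, a target of the pathway, had a log2 ratio of 0.44 at 5.61 on C2C12-PR and 7.59 on C2C12-W4-08. Ptch1, another target, was detected on neither array. Of 23 compared Hox genes, which mark position along the body axis, 5 were higher and 2 lower. Hoxa10 was 41.1 on C2C12-PR, 113 on C2C12-W4-08 and 77.2 on C2C12-DF and Hoxa9 was 22.9 on C2C12-PR, 49.8 on C2C12-W4-08 and 22.9 on C2C12-DF, whereas their neighbors in the cluster, Hoxa7 and Hoxa11, had log2 ratios of -0.23 and 0.28. Hoxd1 was 7.67 on C2C12-PR and 25.3 on C2C12-W4-08, and Hoxb4 was 8.91 on C2C12-PR and 1.99 on C2C12-W4-08. The bright Hoxc9 was 110 on C2C12-PR, 77.8 on C2C12-W4-08 and 140.3 on C2C12-DF.

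Markers of other cell types were looked at in the same way. Of 14 blood and macrophage markers, 9 were compared and 4 were at least 2-fold higher with 1 lower, and the summed signal of the detected ones was 116 on C2C12-PR, 298 on C2C12-W4-08 and 143 on C2C12-DF. Cd68, a lysosomal protein of macrophages, was 21.3 on C2C12-PR, 92.9 on C2C12-W4-08 and 19.7 on C2C12-DF, and Cd14, a receptor for endotoxin, was 29.1 on C2C12-PR, 73.1 on C2C12-W4-08 and 24.3 on C2C12-DF. The defining genes Ptprc, Itgam and Emr1 were at or below 2.72 on every array. Of 19 neural markers 13 were compared, of which 0 were higher and 6 lower, and their summed signal was 1209 on C2C12-PR and 498 on C2C12-W4-08. Tubb3, a neuronal tubulin, was 268 on C2C12-PR, 29.1 on C2C12-W4-08 and 179 on C2C12-DF. Nefl, a neurofilament, was 223 on C2C12-PR, 26.6 on C2C12-W4-08 and 41.6 on C2C12-DF. Outside this list, and named as part of the 15 lowest genes, Uchl1, a neuronal ubiquitin hydrolase, was 151 on C2C12-PR, 11.04 on C2C12-W4-08 and 91.4 on C2C12-DF. Endothelial markers were compared for 4 of 15 genes, with 0 past 2-fold, 9 were detected on C2C12-W4-08 alone, of which Sox18 and Kdr had bounds past 2-fold, at signals of 26.1 and 9.74, and Pecam1 was detected on neither array. Of 11 compared epithelial markers 2 were higher and 2 lower, with Krt1-14, keratin 14, at 24.6 on C2C12-PR, 78.7 on C2C12-W4-08 and 11.9 on C2C12-DF and Cdh1 at 4.79 on C2C12-PR and 3.28 on C2C12-W4-08. Summed signals on C2C12-PR and C2C12-W4-08 were 20413 and 18239 for fibroblast and tenocyte markers. Vim, also used as a myoblast marker, had 12673 on C2C12-PR, the brightest signal of that list. The sums were 4501 and 2012 for bone and cartilage genes and 2885 and 2832 for fat cell genes. Higher and lower genes numbered 0 and 4 of 14 compared, 1 and 1 of 12, and 2 and 0 of 15 in these 3 lists. The share of other cells in these cultures was not tested.

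The genes that the study named for these arrays had the following values. Kitl, the ligand of the receptor Kit, was 3.96 on C2C12-PR, 41.2 on C2C12-W4-08 and 10.6 on C2C12-DF. Il2ra, a subunit of the interleukin 2 receptor, was detected on C2C12-W4-08 alone at 18.8, and Cox6a2, a muscle subunit of cytochrome oxidase, likewise at 8.88, which are bounds of at least 6.90-fold and 3.26-fold. On C2C12-DF, where both were also detected, they had signals of 4.18 and 14.7. Jam4, a junctional adhesion molecule, was 58.4 on C2C12-PR, 2.85 on C2C12-W4-08 and 12.8 on C2C12-DF, and Art3, an ADP-ribosyltransferase relative, was 61.7 on C2C12-PR, 3.71 on C2C12-W4-08 and 18.3 on C2C12-DF. Osbp2, which binds oxysterols, was 46.04 on C2C12-PR and 3.71 on C2C12-W4-08, Lrrn6c was 15.1 on C2C12-PR and 1.13 on C2C12-W4-08 and Cck, the peptide cholecystokinin, was 53.5 on C2C12-PR and 12.3 on C2C12-W4-08. Kpna4, a nuclear import receptor, was 61.7 on C2C12-PR, 14.9 on C2C12-W4-08 and 12.4 on C2C12-DF. Prkch and Ntsr2 were detected on C2C12-PR alone, at 4.37 and 3.14, both near the detection limit, and Cd83, at 6.02 on C2C12-PR and 0.697 on C2C12-W4-08, was dim as well.

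The lower probes were not spread evenly over the chromosomes, a grouping that was chosen after the values were seen. Gene names were placed through the RefSeq gene table of GRCm38.p6, for compared probes with a signal of at least 20 on 1 or both arrays. On chromosome X the median log2 ratio of 233 probes was -0.54, 54 of them (23.2%) were at least 2-fold lower and 11 at least 2-fold higher. Over the autosomes 7.82% of 7746 were at least 2-fold lower, and the medians of single autosomes ran from -0.25 on chromosome 9 to 0.26 on chromosome 16. After print-block centring the median of chromosome X was -0.50, and in C2C12-DF against C2C12-PR it was -0.01. Among the 100 chromosome X probes with a signal of at least 100, 29 were at least 2-fold lower and 2 higher. Tmsb4x, thymosin β4, which binds free actin, was 11310 on C2C12-PR, 2483 on C2C12-W4-08 and 13937 on C2C12-DF. Ube1x, the main ubiquitin-activating enzyme, was 576 on C2C12-PR, 105 on C2C12-W4-08 and 460.4 on C2C12-DF, and Maged1, an adaptor protein, was 808 on C2C12-PR, 229.9 on C2C12-W4-08 and 814 on C2C12-DF. Tspan7, a tetraspanin, was 169.8 on C2C12-PR, 22.7 on C2C12-W4-08 and 157 on C2C12-DF. Flna, Msn and Bgn, given above, lie on this chromosome too. The 2 higher ones were Maoa, a monoamine oxidase, at 133 on C2C12-PR, 472 on C2C12-W4-08 and 170 on C2C12-DF and 1700030B21Rik at 83.6 on C2C12-PR, 585 on C2C12-W4-08 and 89.6 on C2C12-DF.

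**Figure D5:**
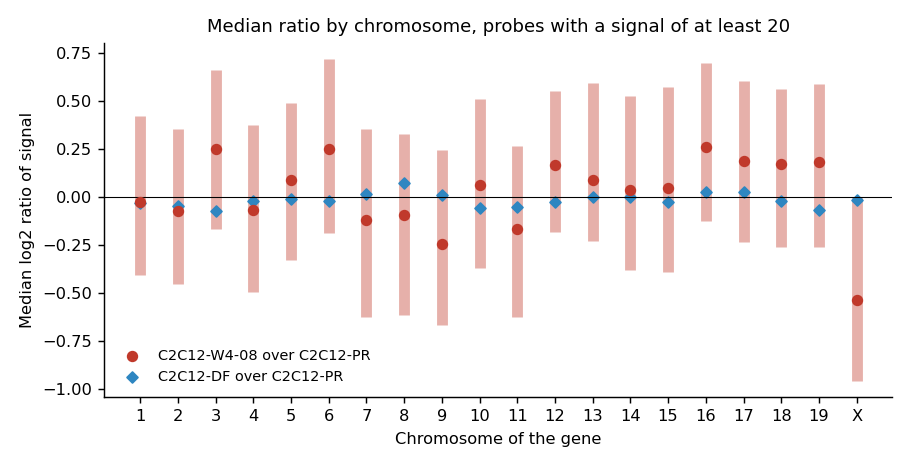
Median log2 ratio of signal by chromosome, for probes with a gene name and a signal of at least 20 on C2C12-PR, C2C12-W4-08 or both. Red circles are C2C12-W4-08 over C2C12-PR with bars from the first to the third quartile, and blue diamonds are the medians of C2C12-DF over C2C12-PR, with the same parental array as base; chromosome X lies lowest in the former, at -0.54, and near 0 in the latter.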

How the data were processed

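Total RNA was amplified, labelled with 1 dye and hybridised to mouse 24K oligonucleotide arrays, 1 array per condition. The methods name Isogen for the extraction and the sample labels name a miRNeasy kit. The authors deposited scanner intensity values for each spot (median and mean of the spot and of the area around it), neither background-subtracted nor scaled. Processed signal values were deposited too, in 1 table whose columns each have a median of 25.0 and whose exact spot summary is not given in the sources used here. It served as an alternative. Columns with the authors' own fold changes in a supplementary sheet were not used.

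From the scanner files, the blank-spot mean was subtracted from the spot median, detection was set at blank mean + 2 SD, and C2C12-W4-08 was multiplied by 1 factor that made the median ratio of jointly detected probes 1. Control spots were left out and 1 saturated spot was kept. With 1 array a side no p-value was computed, and the number of arrays limits the precision. Where a probe was detected on 1 array alone, its signal was divided by the lowest detected signal of the other array and given as a bound. Of 23473 probes, 17539 had a gene name, 1016 an accession and 4918 neither. Of 17340 names, 16809 matched the RefSeq gene table of GRCm38.p6. A gene with several probes entered a list by its brightest probe, 77 of 1329 list symbols had none, and the other 1252 stood for 1242 genes, since some are synonyms.

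The comparison, the 54 gene lists and the rule for named genes were chosen with earlier results of these data known. The rule took the genes that the study names for the arrays, the 15 highest and 15 lowest gene-named probes with a signal of at least 100 on 1 array, still past 2-fold after print-block centring, the 8 largest bounds each way, and up to 5 and 3 members of each list by direction. Not all of these are described, and list members within 2-fold, further family members and genes of chromosome X were named after their values were seen. Alternatives were the local background, normexp with an offset of 50, quantile normalization, loess, scaling to the 75th percentile, print-block centring, the spot mean, the deposited table with and without scaling, minimum signals of 20 and 100, no detection rule, detection at 3 SD, and marks of 1.5-fold and 4-fold. Python 3.11.15, numpy 2.4.6, pandas 2.3.3 and limma 3.58.1 in R 4.3.3 were used, and the steps were tested on simulated data. Promoter sequences came from RefSeq.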

Additional observations from a re-analysis of the deposited data

How the results depend on the processing

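No paired analysis was possible because each condition had a single array and no replicate number. Against 1426 higher and 1843 lower probes, normexp gave 169 and 737, the spot mean 262 and 363 (with 4776 probes compared), the deposited table without scaling 5364 and 941, minimum signals of 20 gave 473 and 493 and of 100 gave 157 and 174, a mark of 1.5-fold gave 3502 and 3646 and of 4-fold 136 and 388, and no detection rule gave 5627 lower. Minimum signals and marks change these counts by construction, and so does dropping the detection rule. That setting raised each undetected signal to the lowest detected one of its array, 2.72 on C2C12-PR and 0.697 on C2C12-W4-08. All 1513 probes detected on neither array were thereby counted as at least 2-fold lower. The unscaled table leaves out the scaling to a median ratio of 1. The cause of the other shifts was not tested. The local background, quantile normalization, loess, the 75th percentile, print-block centring, the scaled table and detection at 3 SD kept both counts within 1.5 times. Of called probes 43.6% were higher, against 18.7% with normexp, 85.1% in the unscaled table and 23.3% with no detection rule. In the unscaled table the median of all ratios was 0.57, in which 27 of 54 list medians changed sign, and with no detection rule it was -0.17. Bounds of at least 2-fold numbered 60 higher and 5 lower with the spot mean, against 284 and 177, a setting added after the data were seen.

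Of 158 described genes past 2-fold, 10 changed sign, all with normexp and Nyx also in the unscaled table, at 0.17. Normexp gave log2 ratios of -0.089 for Atf4, 0.0031 for Cd83, -0.080 for Eprs, 0.094 for Hoxb4, 0.094 for Kera, 0.022 for Lef1, 0.092 for Nyx, 0.094 for Pax7, 0.051 for Ptprc and 0.12 for Wnt10a. Apart from Atf4 and Eprs these had signals of 15.9 or less on both arrays. The area around the spot read a median of 35.1% of the spot on C2C12-W4-08 and 18.8% on C2C12-PR over 3429 probes with signals of at least 100 on both arrays, the quantity that both local-background settings subtract. Chromosome X had a median of -0.03 in the unscaled table and from -0.64 to -0.24 in the other settings.

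No replicate array, empty-plasmid clone or second Wnt4 clone was analysed here, and the dimmest probes lie within a few scanner units of the blank spots.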

Other observations

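Probes detected on a single array gave bounds only. Of 5101 detected on C2C12-W4-08 alone, 284 (5.57%) reached at least 2-fold above the lowest signal of C2C12-PR, and all 177 detected on C2C12-PR alone passed this mark, since the lowest signals of both arrays are themselves further than 2-fold apart. After Wnt4, the largest bounds in the clone were those of Gpr141, an orphan receptor, with a signal of 71.4 and a bound of 26.2-fold, and of 9130213B05Rik, with 44.6. Sox18, a transcription factor of blood and lymph vessels, had 26.1 in the clone. Among other endothelial markers Kdr, a receptor of vascular endothelial growth factor, had 9.74, a bound of 3.58-fold, and Pecam1, Cdh5, Tek and Tie1 did not exceed 1.99 there. Trp63, a p53 relative of basal epithelium, had 22.2 on C2C12-W4-08 and was not detected on either parental array. In the opposite direction, Agtrap, which binds the angiotensin receptor, had a signal of 29.5 on C2C12-PR and 25.6 on C2C12-DF and was not detected in the clone. Cdh11, a cadherin of mesenchymal cells, had 10.2 on C2C12-PR and 58.1 on C2C12-DF and was likewise not detected in the clone. Ccdc65, a ciliary protein, had 20.9 and 18.8. Eomes, a T-box factor, had 10.2 and 11.5.

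Chemokines and growth factors were as often higher as lower, with 3 and 3 of 19 compared chemokines and cytokines and 3 and 3 of 25 compared growth factors. Over all compared probes 8.55% were higher and 11.0% lower. The shares of growth factors were near these, and those of chemokines and cytokines lay above them by few genes. The growth factor median of 0.06 was -0.24 with the spot mean. Cxcl1, which attracts neutrophils, was 12.6 on C2C12-PR, 37.3 on C2C12-W4-08 and 31.1 on C2C12-DF, and Cxcl12, which guides migrating muscle progenitors, was 23.8 on C2C12-PR, 8.88 on C2C12-W4-08 and 120.2 on C2C12-DF. Tslp, a cytokine of epithelia, was 58.8 on C2C12-PR, 14.1 on C2C12-W4-08 and 31.1 on C2C12-DF. Of 18 compared growth factor receptors 6 were lower and 1 higher, among them Fgfr1, the main fibroblast growth factor receptor of myoblasts, at 117 on C2C12-PR, 39.5 on C2C12-W4-08 and 112 on C2C12-DF. In the immediate early list, Egr1 was 110.4 on C2C12-PR, 29.1 on C2C12-W4-08 and 215 on C2C12-DF and Ier3 was 192 on C2C12-PR, 406 on C2C12-W4-08 and 121 on C2C12-DF. No explanation was tested for these values.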
